A study of Canis lupus familiaris with 15 samples.

Results

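Gene expression of a cell line from a benign tumour of the dog mammary gland, CMT-U229, was set against that of CMT-U335, a line from a primary osteosarcoma of the same organ. CMT-U229 came from a benign mixed tumour. The comparison holds the 5 arrays that were hybridised with both lines, out of 15 in the series, and all 5246 genes with a symbol that could be measured on them. The other 10 arrays paired each of these lines with P114, a line from an anaplastic carcinoma, and were used only where stated. All cells were untreated as far as the labels say and were harvested near confluence. Each group is a single cell line, so the differences are between 2 lines and not between 2 tumour types. CMT-U229 carried the dye Cy5 in replicates 1, 2 and 5 and Cy3 in replicates 3 and 4, with CMT-U335 in the other dye.

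A mixed tumour of the mammary gland contains epithelial and myoepithelial cells together with a mesenchymal part that can form cartilage or bone. An osteosarcoma is built of malignant mesenchymal cells that lay down bone matrix, in which type I collagen is the main protein. Keratins 8 and 18 are the paired intermediate filament proteins of simple epithelia, EPCAM is an epithelial adhesion molecule, and type I collagen, SPARC and alkaline phosphatase are products of bone-forming cells. The question of the comparison was which genes differ between these lines.

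Every value below is a log2 ratio of CMT-U229 over CMT-U335, so that 1 is a 2-fold higher signal in CMT-U229, given for single arrays in the order of replicates 1 to 5 or as the mean ± SE (limma, n = 5 arrays). A gene was called higher or lower when its adjusted p (limma, Benjamini-Hochberg over 5246 genes) lay under 0.05. The direction is likely and not settled: the deposited values do not say which dye is the numerator, and they were read as Cy5 over Cy3. Were they the reverse, every higher gene would be lower. A ratio of 2 dyes gives no level in either line, so a marker that is near 0 here may be absent from both lines or equally present in both.

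The labels count the arrays as 5 biological replicates, whereas the series' design describes dye swaps with at least 1 biological replicate for each pair. Some arrays may therefore repeat an RNA sample, and a p-value here measures only how far the arrays scatter. In genes chosen for how much their arrays varied, replicates 2 and 3 lay close together, as did replicates 4 and 5, and each of these couples has opposite dyes. Over all genes the ratios correlated at 0.654 between replicates 2 and 3 but at only 0.461 between replicates 4 and 5. Replicate 5 correlated more with replicates 1, 2 and 3 (0.662, 0.610 and 0.493). Replicate 4 correlated more with replicates 2 and 3 (0.532 and 0.555). The couple of replicates 4 and 5 in particular is therefore not settled. Calls with the couples averaged to leave 3 values are given beside the counts and are named the averaged calls. Intensities were not used here, so how far a spot stood above background is unknown, and precision is limited by having 5 arrays. Between arrays, the correlation of gene ratios turned to the same direction ran from 0.268 (replicates 1 and 4) to 0.662 (replicates 1 and 5). Over all probes, unnamed ones included, the same pairs of arrays were again the extremes, at -0.0001 and 0.497.

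In all, 910 of 5246 genes were called (17.3%), 460 of them higher in CMT-U229 (8.77%) and 450 lower (8.58%). Of these, 891 had the same sign on all 5 arrays. The median ratio of all genes was -0.0050 and the median size of a called ratio was 0.60. A difference of at least 2-fold was found for 154 genes, 77 in each direction, and one of at least 4-fold for 16 higher and 12 lower genes. The averaged calls numbered 410, which is 7.82% of genes, with 4.37% higher and 3.45% lower, and 147 of them reached 2-fold. Without replicate 5 the count was 571 and without replicate 2 it was 586. Counts of called list members below are to be read beside 17.3% of all genes called, 8.77% higher and 8.58% lower.

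**Figure D1:**
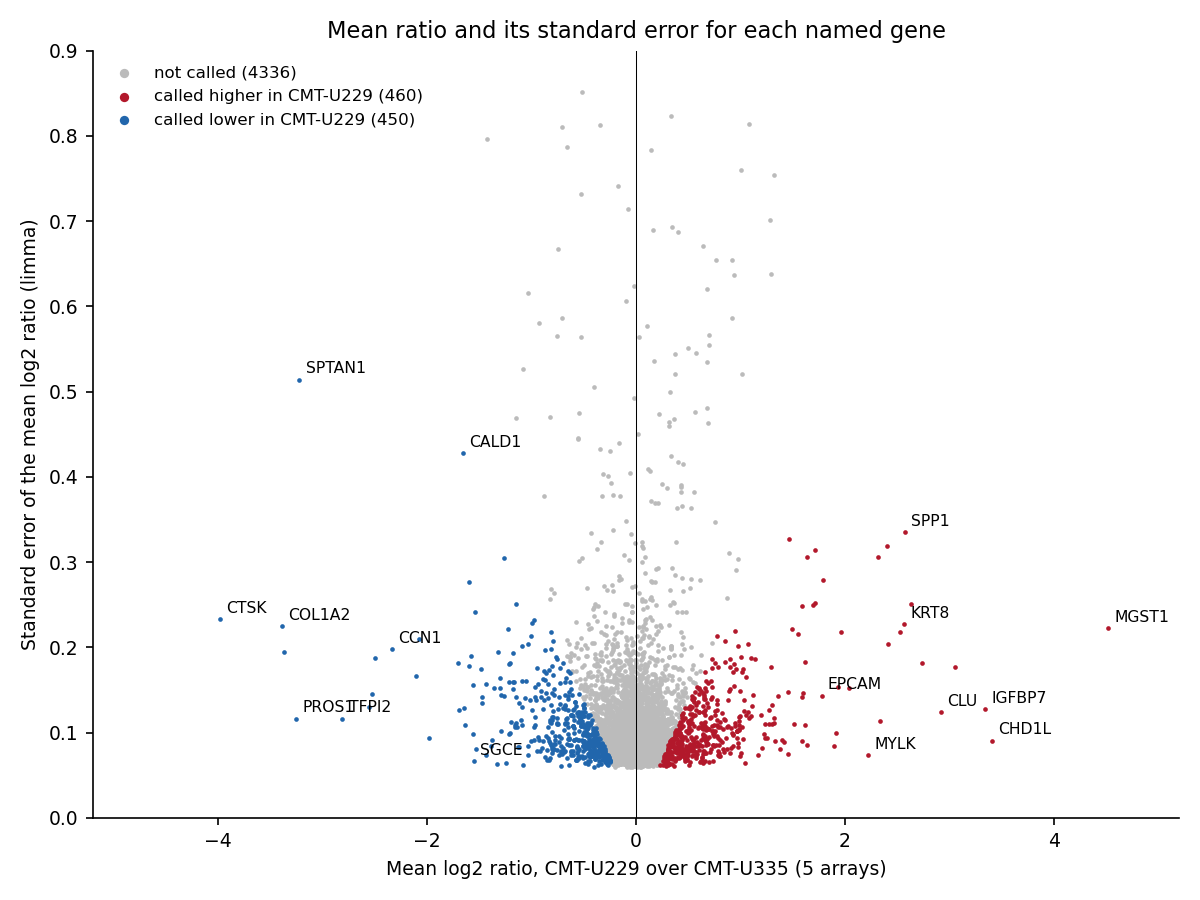
Each point is 1 named gene, with its mean log2 ratio of CMT-U229 over CMT-U335 on the x axis and the limma standard error of that mean on the y axis. Red points are the 460 genes called higher, blue points the 450 called lower and grey points the genes not called, and 8 genes that were not called lie above the top of the y axis. MGST1 lies farthest to the right and CTSK farthest to the left, and SPTAN1 has a large ratio with a large error.

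Among the listed keratins and genes of the epithelial surface, KRT8, KRT18 and EPCAM were called higher in CMT-U229. LAMA3, a chain of an epithelial laminin, was lower (-1.20 ± 0.18) and is described with the laminins. KRT8, a keratin of simple epithelia, had ratios of 3.01, 2.21, 1.71, 2.52 and 3.36 on the 5 arrays. All 5 lay far above 0, with a mean of 2.56 ± 0.23 (5.91-fold, adjusted p = 0.000673, limma). Its partner KRT18 was also higher, at 0.78, 0.68, 0.70, 0.83 and 0.99. That is a narrow spread around 0.79 ± 0.07 (adjusted p = 0.000715, limma), a 1.74-fold difference. EPCAM had ratios of 1.33, 1.87, 2.32, 1.87 and 1.49, again all above 0, and was 3.43-fold higher (1.78 ± 0.14). These 2 keratins were the only ones measured among 12 listed.

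The rest of the epithelial surface did not follow EPCAM. Of 7 measured genes of the epithelial surface and junctions, EPCAM was called higher and PPL, which encodes the desmosome-associated protein periplakin, was called lower. PPL stood at -0.39, -0.81, -0.68, -0.25 and -0.25, with a mean of -0.48 ± 0.10, and was not among the averaged calls (adjusted p = 0.10, limma). The other 5 were not called, and the median of the list was 0.10.

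CTSK and COL1A2, which act on or form collagen, were among the genes with the largest ratios on the lower side. CTSK, the collagen-degrading protease cathepsin K, had ratios of -2.94, -4.46, -4.61, -4.14 and -3.78. Even the array with the smallest difference, replicate 1, was far from 0, and the mean of -3.98 ± 0.23 corresponds to 15.8-fold (adjusted p = 0.000123, limma). COL1A2, the alpha-2 chain of type I collagen, stood at -3.36, -2.42, -3.22, -4.01 and -3.93. Its mean was -3.39 ± 0.22, a 10.5-fold difference, and each of its 3 probes was called lower, with means from -4.09 to -2.80.

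Of 8 measured collagen genes 4 were lower and 0 higher, against 8.58% of all genes called lower, and the list's median was -0.57. All 4 were also averaged calls. The basement membrane chains COL4A1 and COL4A2 lay at -1.43 ± 0.16 and -1.98 ± 0.09. COL4A2 ranged only from -2.25 to -1.79 over the arrays. For COL4A1, 4 of 5 probes were called lower and the probe means ran from -2.75 to -0.02. COL12A1, a collagen that associates with fibrils, was at -0.92 ± 0.08. The type III collagen gene COL3A1, at 0.01, was not called.

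Genes that process collagen went both ways. PCOLCE, an enhancer of the proteinase that trims procollagen, had ratios of -1.45, -2.17, -1.90, -2.65 and -2.38. It was lower on every array, with a mean of -2.11 ± 0.17 (adjusted p = 0.000437, limma). CRTAP, a part of the prolyl 3-hydroxylation complex, and ADAMTS2, which removes the N-propeptide of procollagen, were also lower, at -0.72 ± 0.08 and -0.40 ± 0.09. ADAMTS2 was not among the averaged calls (adjusted p = 0.092, limma). In the other direction stood LOXL3, a lysyl oxidase-like enzyme that cross-links collagen and elastin, with ratios of 2.72, 2.00, 2.16, 2.51 and 2.29. It was 5.05-fold higher in CMT-U229 (2.34 ± 0.11).

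The osteoblast and bone genes were divided. Of 7 measured, COL1A2 and CTSK were lower and SPP1 was higher. SPP1 encodes the bone matrix phosphoprotein osteopontin, which many epithelial tumours also secrete. Its ratios were 1.45, 3.56, 3.58, 2.42 and 1.86. They did not reach 0 on any array but spread widely, and the mean was 2.58 ± 0.34 (5.96-fold, adjusted p = 0.0026, limma). SPARC, the bone and basement membrane glycoprotein osteonectin, was at -0.69, -0.05, -0.10, -1.39 and -0.98. Its values lay near 0 in replicates 2 and 3, and it was not called (-0.64 ± 0.20, adjusted p = 0.0769, limma). The alkaline phosphatase gene ALPL (-0.07), the phosphate-regulating endopeptidase gene PHEX (0.16) and BMP2, a bone morphogenetic protein (0.18), were not called either. Of the bone genes measured, then, COL1A2 and CTSK had the higher signal in the osteosarcoma line, SPP1 had it in the line of the benign tumour, and 4 were not called.

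Mesenchymal markers were lower in CMT-U229 in 5 of 9 cases (55.6%, against 17.3% of all genes called in either direction) and higher in none. All 5 were averaged calls, and the list's median was below 0 on every array, from -0.93 to -0.39. SGCE, the membrane glycoprotein epsilon-sarcoglycan, had ratios of -1.49, -1.69, -1.50, -1.58 and -1.49. This was among the tightest sets of values, with a mean of -1.55 ± 0.07 (2.93-fold). S100A4, a calcium-binding protein of motile mesenchymal cells, was at -1.57 ± 0.19 and the matrix protein gene FBLN2 at -1.47 ± 0.14. DCN, a collagen-binding proteoglycan, and ZEB1, a transcription factor that represses epithelial genes, followed at -0.81 ± 0.11 and -0.57 ± 0.08. One of 2 DCN probes was called, and their means were -1.38 and -0.24. The gene for the intermediate filament vimentin, VIM, was not called (-0.57 ± 0.16, adjusted p = 0.052, limma), with ratios of 0.07, -0.77, -0.97, -0.87 and -0.31 and only replicate 1 above 0.

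The list of matrix glycoproteins and laminins shares SPP1, SPARC, DCN and FBLN2 with the lists above. Of 20 measured, 5 were higher and 4 lower (45.0% called, beside 17.3% of all genes), and 7 were averaged calls. CCN1, a matricellular protein that binds integrins, was the lowest, at -2.55, -1.75, -1.79, -3.07 and -2.50. It was 5.04-fold lower in CMT-U229 with its smallest difference in replicate 2 (-2.33 ± 0.20). LAMA3, the alpha chain of the epithelial laminin-332, was lower as well (-1.20 ± 0.18), with both probes called. EFEMP1, the secreted glycoprotein fibulin-3, was higher at 0.91, 1.48, 1.67, 0.47 and 0.22. The spread between arrays was wide, and EFEMP1 was not an averaged call (0.95 ± 0.22, adjusted p = 0.088 there, limma).

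The integrins, receptors that tie cells to the matrix, had 2 higher and 1 lower of 13 (23.1%, beside 17.3% of all genes called). The alpha subunits ITGA6 and ITGAV were higher, at 0.89 ± 0.15 and 0.69 ± 0.10, and the beta subunit ITGB5 lower, at -1.26 ± 0.14. The 2 probes of ITGA6 differed, with means of -0.05 and 1.82 and 1 called. Of 11 proteases and inhibitors 3 were lower and 1 higher (36.4% called, beside 17.3% of all genes). TFPI2, an inhibitor of serine proteases in the matrix, had ratios of -2.38, -3.13, -2.95, -2.65 and -2.94, a narrow range around -2.81 ± 0.12 (7.01-fold). The sheddase ADAM10 was at -0.97 ± 0.11. TIMP3, an inhibitor of metalloproteinases, was higher at 0.44 ± 0.12, though not among the averaged calls (adjusted p = 0.16, limma).

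The remaining genes with the largest ratios have varied roles. MGST1, a membrane-bound glutathione transferase, had the largest ratio of all called genes, at 4.01, 5.29, 5.12, 4.05 and 4.12. Its 5 arrays all exceeded 4, and the mean of 4.52 ± 0.22 is 22.9-fold (adjusted p = 7.81e-05, limma). CHD1L, a chromatin remodeller, followed at 3.48, 3.64, 3.25, 3.15 and 3.51. With 3.40 ± 0.09 (10.6-fold) it had one of the smallest errors of the leading genes.

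IGFBP7, a secreted protein that binds insulin-like growth factors, was 10.1-fold higher, with ratios of 3.00, 3.42, 3.12, 3.29 and 3.86. RGCC, a regulator of the cell cycle, stood at 2.72, 2.58, 2.79, 3.65 and 3.51, and both of its probes were called (3.05 ± 0.18). CLU, the secreted chaperone clusterin, had ratios of 2.81, 2.88, 2.96, 2.53 and 3.42 and a mean of 2.92 ± 0.12. The lowest array of these 3 genes stood at 2.53. The tetraspanin gene TSPAN8 had a mean of 2.73 ± 0.18 and a lowest array of 1.88, and the membrane protein gene ITM2B a mean of 2.63 ± 0.25 and a lowest array of 2.02.

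MT2A, a metal-binding metallothionein, ran from 1.85 to 3.29, with a mean of 2.53 ± 0.22. The fibrinogen-like protein gene FGL2 was at 2.41 ± 0.20 and RPL22L1, a paralog of a ribosomal protein, at 2.40 ± 0.32. B2M, the light chain of class I histocompatibility molecules, had ratios of 3.55, 2.59, 2.52, 1.32 and 1.59, so that replicate 1 was high and replicates 4 and 5 low (2.32 ± 0.31). MYLK, a kinase that activates myosin in contractile cells, varied much less between arrays, with values of 2.36, 2.25, 2.32, 2.07 and 2.12. Its mean of 2.22 ± 0.07 corresponds to 4.66-fold.

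On the lower side, CCDC80, a secreted protein found in matrix, had ratios of -3.20, -3.14, -2.86, -4.29 and -3.33 (-3.37 ± 0.19). PROS1, the anticoagulant protein S, was at -3.42, -3.44, -3.27, -2.74 and -3.41, where only replicate 4 stood apart from values that were otherwise nearly equal (-3.25 ± 0.12, 9.55-fold). SPTAN1, the alpha chain of non-erythroid spectrin, was the least even, at -2.23, -4.83, -4.89, -2.29 and -1.86. Replicates 2 and 3 were below -4.8 and the other 3 above -2.3, and the mean was -3.22 ± 0.51 (adjusted p = 0.00597, limma; adjusted p = 0.041 with the couples averaged).

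The actin-bundling protein gene PLS3 (-2.55 ± 0.13), the histone acetyltransferase complex subunit gene ING3 (-2.52 ± 0.15) and the mitochondrial lysine deacylase gene SIRT5 (-2.50 ± 0.19) differed by 5.67-fold to 5.87-fold. EDN1, the vasoconstrictor peptide endothelin-1, was at -2.96, -2.03, -1.36, -1.77 and -2.23, lowest in replicate 1 (-2.07 ± 0.21). MBOAT2, an acyltransferase for phospholipids, and NKIRAS1, a Ras-like protein that binds inhibitors of NF-kappaB, completed the 15 lowest genes at -1.70 ± 0.18 and -1.69 ± 0.13. All 30 leading genes remained called with the couples averaged and with any 1 array left out.

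**Figure D2:**
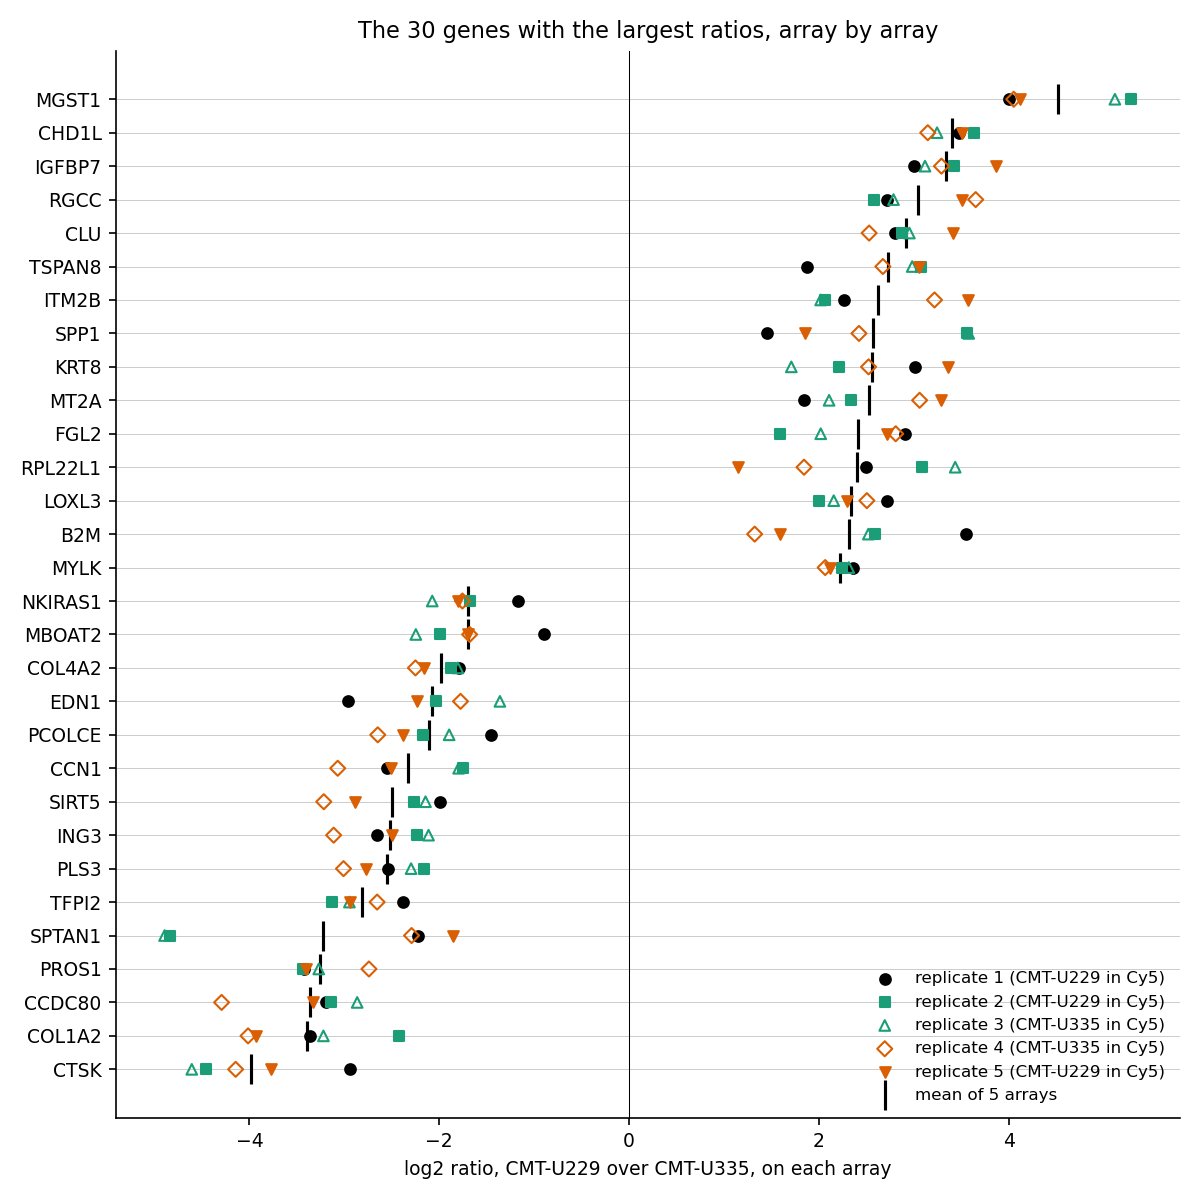
The log2 ratio of CMT-U229 over CMT-U335 (x axis) is shown for the 15 genes called with the largest mean in each direction (y axis), 1 symbol for each of the 5 arrays and a vertical bar for their mean. Filled symbols are arrays with CMT-U229 in Cy5 and open symbols arrays with CMT-U335 in Cy5, and green and orange mark the couples of replicates 2 and 3 and of 4 and 5. Genes were taken only if every array had the same sign, so no array crosses 0 by that choice. SPTAN1 splits into values below -4.8 and values above -2.3.

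The contractile and myoepithelial genes, which include genes of smooth muscle actin filaments, did not share a direction. Of 17 measured, MYLK and ITGA6 were higher and 4 were lower (35.3% called, beside 17.3% of all genes). CALD1, the actin- and myosin-binding caldesmon, was at -1.69, -0.55, -0.26, -2.999 and -2.80. These values span from near 0 to below -2.7, and CALD1 was not among the averaged calls (-1.66 ± 0.43, adjusted p = 0.0385; adjusted p = 0.11 averaged, limma). TPM1, a tropomyosin, was lower at -0.91 ± 0.15 with 2 of 3 probes called, and LAMA3 and the caveolae coat gene CAV1 (-0.72 ± 0.09) made up the 4. The smooth muscle actin gene ACTA2 (0.27) and TAGLN, an actin-binding protein of smooth muscle (0.15), were not called. The list's median was -0.05.

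Of 30 genes of the actin cytoskeleton and its membrane linkers, 7 were lower and 3 higher, and 4 of these 10 were averaged calls. The called share was 33.3%, beside 17.3% of all genes. PLS3 and SPTAN1 have been described. The tropomyosin gene TPM4 was at -1.11, -0.59, -0.69, -2.03 and -1.70, lower on every array though by unequal amounts (-1.22 ± 0.22). MYH9, the heavy chain of non-muscle myosin, stood at -0.81 ± 0.18, but was no averaged call (adjusted p = 0.077, limma). ARPC1B, a subunit of the actin-nucleating Arp2/3 complex, was higher at 1.02 ± 0.17. Of 15 S100 proteins and annexins, calcium-binding proteins, S100A1 was higher (1.79 ± 0.28, from 0.71 to 2.61) and S100A11 too (0.51 ± 0.10), whereas S100A4 and ANXA11 (-0.51 ± 0.12) were lower. S100A11 and ANXA11 were not averaged calls (adjusted p = 0.056 and 0.096, limma). Of the S100 proteins and annexins 26.7% were called, beside 17.3% of all genes.

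Inhibitors of the cell cycle and targets of p53 had 3 higher genes of 8 and 0 lower, where 8.77% of all genes were higher. Besides RGCC these were CDKN1A, the inhibitor p21 of cyclin-dependent kinases, and the p53 target CCNG1. CDKN1A had ratios of 1.57, 0.74, 0.80, 2.53 and 2.54. All were above 0, with replicates 4 and 5 at more than 3 times the log2 ratio of replicates 2 and 3, and the averaged call was just missed (1.64 ± 0.31, adjusted p = 0.0113; adjusted p = 0.051 averaged, limma). CCNG1 was at 1.02 ± 0.09.

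Among 11 mitosis genes 3 were lower and 0 higher, a called share of 27.3% beside 17.3% of all genes. FOXM1, a transcription factor of dividing cells, stood at -1.26, -1.64, -1.55, -1.45 and -0.61 and was lower on each array (-1.30 ± 0.15). The motor protein gene KIF23 (-0.63 ± 0.17) and the spindle checkpoint gene BUB3 (-0.61 ± 0.12) were called as well but not averaged calls (adjusted p = 0.21 and 0.10, limma). The medians of this list were -0.91 and -0.61 in replicates 4 and 5 and between -0.04 and 0.02 in the others. Of 18 DNA replication genes only GMNN was called (5.56%, beside 17.3% of all genes), lower at -0.97 ± 0.23. Geminin, its product, blocks a second round of replication. GMNN was not an averaged call (adjusted p = 0.12, limma), and the list's median of 0.02 was close to that of all genes.

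Of 12 receptor tyrosine kinases and growth factors DDR1, a collagen receptor, was higher (0.57 ± 0.15) and FGFR2, a fibroblast growth factor receptor, lower (-0.66 ± 0.09). Called members made up 16.7%, near the 17.3% of all genes. Neither of the 2 DDR1 probes was called alone, and 1 of 3 FGFR2 probes was. DDR1 was no averaged call (adjusted p = 0.13, limma). The epidermal growth factor receptor gene EGFR (-0.31, -0.02, 0.49, 0.16 and -0.11) and its relative ERBB2 (0.27, 0.24, -0.20, 0.10 and -0.15) fell on both sides of 0. Their means were 0.04 ± 0.12 and 0.05 ± 0.09, and neither was called.

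In the axis of growth hormone and insulin-like growth factor, IGFBP7 and the growth hormone receptor gene GHR were higher and IGFBP6, another binding protein, lower (-0.32 ± 0.09), among 7 measured. GHR had ratios of 0.81, 0.77, 0.63, 0.96 and 0.85. This is an even 1.75-fold difference, and 12 of its 13 probes were called higher (0.81 ± 0.07). IGFBP6 was not an averaged call (adjusted p = 0.17, limma).

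Wnt signalling had 4 higher and 2 lower genes of 15. DKK3, a secreted glycoprotein of the Dickkopf family, was at 1.90, 1.49, 1.57, 1.49 and 1.76, a narrow range around 1.64 ± 0.09 (3.12-fold). The Wnt receptor gene FZD7 (0.77 ± 0.21), the beta-catenin gene CTNNB1 (0.67 ± 0.10) and the secreted Wnt-binding protein gene FRZB (0.60 ± 0.08) were higher. FZD7 was at -0.09 in replicate 1 and no averaged call (adjusted p = 0.25, limma). DKK2, a Wnt antagonist, was lower at -0.44 ± 0.11 but not an averaged call (adjusted p = 0.063, limma).

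Of 11 TGF-beta and BMP genes the receptor gene ACVR1 (0.80 ± 0.11) and the BMP target ID3 (0.34 ± 0.09) were higher. ID3 was not an averaged call (adjusted p = 0.095, limma). Of 4 Notch genes RBPJ, the DNA-binding partner of the receptor, was higher (0.44 ± 0.08; adjusted p = 0.087 averaged, limma), and ADAM10, which cleaves the receptor, lower.

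Immediate early genes, which respond to growth factors and to handling of the cells, had 3 higher and 1 lower of 10. DUSP6, a phosphatase that acts on ERK, was at 0.97, 0.99, 0.85, 1.86 and 1.81, higher on all arrays and most in replicates 4 and 5 (1.30 ± 0.18). IER2 was at 1.05 ± 0.17. FOS, a subunit of the transcription factor AP-1, was at 0.90 ± 0.18 but no averaged call (adjusted p = 0.083, limma). CCN1, also an immediate early gene, was the 1 lower gene.

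Antioxidant genes were represented by 5 higher and 0 lower of 26 in the glutathione list, a called share of 19.2% beside 17.3% of all genes, and 3 of them were averaged calls. NQO1, a quinone reductase, had ratios of 2.39, 0.86, 0.93, 1.53 and 1.74, and all 5 exceeded 0.8 (1.49 ± 0.22, 2.81-fold). SOD2, the mitochondrial superoxide dismutase, was at 0.96 ± 0.09 with both probes called. The glutathione reductase gene GSR (0.53 ± 0.11) and the peroxiredoxin gene PRDX6 (0.31 ± 0.09) were not averaged calls (adjusted p = 0.099 and 0.12, limma). The median of the list was -0.02, beside -0.0050 for all genes.

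Metal handling had 4 higher and 2 lower genes of 11, a called share of 54.5% beside 17.3% of all genes. Beside MT2A the metallothionein gene MT1E was higher, at 1.03, 1.03, 1.27, 1.38 and 1.31 (1.20 ± 0.08). CYBRD1, a ferric reductase, had ratios of 1.73, 2.27, 2.01, 1.86 and 1.69, all near the mean of 1.91 ± 0.10 (3.76-fold). CP, the ferroxidase ceruloplasmin, was at 0.52 ± 0.09 (adjusted p = 0.052 averaged, limma). STEAP1, a metalloreductase family member, was lower at -1.09 ± 0.13.

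In fatty acid metabolism 3 of 26 genes were higher and 2 lower, a called share of 19.2%, near the 17.3% of all genes. FABP5, a carrier of fatty acids, had ratios of 2.04, 2.00, 2.02, 1.64 and 1.78. These values were almost equal, and the 3.72-fold difference had a small error (1.90 ± 0.08). The acyl-CoA binding protein gene DBI was at 0.98 ± 0.10 and the desaturase gene FADS1 at 0.62 ± 0.07, with all 4 FADS1 probes called. CPT2, which moves fatty acids into oxidation in mitochondria, was lower (-0.76 ± 0.08), as was ACSL3, an activating enzyme (-0.32 ± 0.07; adjusted p = 0.15 averaged, limma).

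Cholesterol synthesis had 4 lower genes of 9 and 0 higher, beside 8.58% of all genes called lower, but none was an averaged call. MSMO1, a sterol oxidase, was at -0.79, -0.48, -0.61, -2.27 and -2.18, and SQLE, squalene epoxidase, at -1.25, -0.46, -0.36, -1.90 and -1.77. In both genes replicates 4 and 5 lay far below replicates 2 and 3. Their means were -1.27 ± 0.30 and -1.15 ± 0.25 (adjusted p = 0.03 and 0.021; 0.12 and 0.073 averaged, limma). The sterol isomerase gene EBP was at -0.87 ± 0.20, with replicate 1 at -0.06, and MVD, an enzyme of the mevalonate pathway, at -0.28 ± 0.06 (adjusted p = 0.17 and 0.15 averaged, limma).

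Of 10 folate genes the dehydrogenases ALDH1L1 (-1.29 ± 0.14) and ALDH1L2 (-0.89 ± 0.13) were lower and the other 8 were not called. Among 14 ABC transporters ABCB4, a phospholipid transporter related to the multidrug transporter, was at -0.88, -1.42, -1.56, -1.70 and -1.78. It was lower on each array (-1.47 ± 0.13, 2.77-fold). The mitochondrial porphyrin transporter gene ABCB6 (-0.97 ± 0.11) and the multidrug transporter gene ABCB1 (-0.59 ± 0.13) were lower, and ABCD3, a peroxisomal transporter, higher (0.51 ± 0.11). ABCB1 and ABCD3 were not averaged calls (adjusted p = 0.07 and 0.093, limma).

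Of 17 glycolysis genes PGK1 (-0.68 ± 0.13) and ENO3 (-0.80 ± 0.15), which encode a kinase and an enolase of the pathway, were lower. The share was 11.8%, beside 8.58% of all genes called lower, and PGK1 was not an averaged call (adjusted p = 0.11, limma). Of 13 hypoxia response genes 23.1% were called, beside 17.3% of all genes. ANGPTL4 and ADM, which encode secreted proteins, and the transcription factor gene MXI1 were lower, by less than 0.5. None was an averaged call (adjusted p = 0.06, 0.069 and 0.22, limma). Respiratory complex I had 5 lower and 0 higher of 27, an 18.5% share of calls beside 17.3% of all genes in either direction. NDUFB5, an accessory subunit, stood at -1.35, -0.87, -0.88, -1.27 and -1.44, with 3 of 4 probes called (-1.16 ± 0.11). NDUFB9 was at -0.96 ± 0.14, and NDUFA12, NDUFA8 and NDUFA2 were between -0.88 and -0.41 without being averaged calls (adjusted p from 0.10 to 0.20, limma).

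The other respiratory complexes and the citric acid cycle had 6 lower and 4 higher genes of 33, and 2 averaged calls. The called share was 30.3%, beside 17.3% of all genes. CYC1, cytochrome c1 of complex III, was higher at 1.64, 0.67, 0.94, 0.37 and 1.02 (0.93 ± 0.17). SDHD, a membrane anchor of succinate dehydrogenase, was lower at -0.61 ± 0.07. SDHB, its iron-sulphur subunit, was near 0 in replicate 1 (-0.06) and between -1.34 and -0.74 elsewhere (-0.79 ± 0.17; adjusted p = 0.15 averaged, limma). Of 61 genes of the mitochondrial ribosome and protein import 10 were lower and 6 higher (26.2% called, beside 17.3% of all genes). The ribosomal protein genes MRPL47 (-1.14 ± 0.11) and MRPS31 (-0.93 ± 0.09) led the lower ones and MRPS30 (0.75 ± 0.11) the higher.

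Of 18 folding factor genes of the endoplasmic reticulum 7 were higher (38.9%, beside 8.77% of all genes) and 0 lower. The list's median of 0.28 was above 0 on each array, from 0.17 to 0.38. PDIA3, a disulphide isomerase, had ratios of 1.77, 0.86, 1.16, 1.24 and 1.34 (1.27 ± 0.13, 2.42-fold). It was the only averaged call of the list. HSPA5, the chaperone BiP, was at 1.28, 0.31, 0.40, 1.40 and 1.48, low in replicates 2 and 3 (0.97 ± 0.20; adjusted p = 0.065 averaged, limma). The lectin chaperone gene CALR (0.78 ± 0.11), the stress transcription factor gene XBP1 (0.73 ± 0.14) and HSP90B1 (0.67 ± 0.16), the chaperone GRP94, were also higher, with adjusted p = 0.054, 0.061 and 0.23 averaged (limma).

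In the list of cytosolic and mitochondrial chaperones 7 of 34 were lower and 1 higher, and 4 were averaged calls. Called members made up 23.5%, beside 17.3% of all genes. HSPB8, a small heat shock protein, had ratios of -2.02, -1.16, -1.25, -2.03 and -1.37, all below -1.1 (-1.56 ± 0.16). CCT2, a subunit of the chaperonin that folds actin and tubulin, was at -1.18 ± 0.16, and FKBP5, an immunophilin, at -0.97 ± 0.14. The prefoldin subunit gene PFDN4 was at -0.72 ± 0.08 and the mitochondrial chaperone gene HSPA9 at -0.50 ± 0.13 (adjusted p = 0.19 averaged, limma). Whether the 2 lists differ from each other was not tested.

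Cytosolic ribosomal protein genes and translation factor genes were called higher more often than lower, and some of the higher ones lie on chromosome 13. Of 55 cytosolic ribosomal protein genes 14 were higher and 2 lower (29.1% called, beside 17.3% of all genes). Their median ratio was 0.16, and 8 were averaged calls. The list's median was 0.50 in replicate 5 and between -0.02 and 0.21 in the others. RPL8 was at 2.38, 1.23, 0.82, 1.64 and 2.49, all above 0.8 (1.71 ± 0.25, 3.27-fold). RPS27A, which encodes a fusion of ubiquitin and a ribosomal protein, followed at 1.36 ± 0.14 and RPL7 at 1.32 ± 0.11, and RPL30 and RPS24 were both at 0.97 ± 0.10. RPL8 and RPL30 lie on chromosome 13 in the RefSeq gene table. Of the 53 cytosolic ribosomal protein genes elsewhere 12 were higher and 2 lower, with a median of 0.16. Ribosomal protein genes have many near-identical pseudogenes, so their probes may share signal.

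Of 35 translation factors 8 were higher and 2 lower (28.6% called, beside 17.3% of all genes), and 7 of these were averaged calls. EIF3E, a subunit of initiation factor eIF3, was at 1.37, 1.21, 1.22, 1.47 and 1.59, and its companion EIF3H at 1.45, 1.01, 1.35, 1.33 and 1.53. Both were even across arrays, with means of 1.38 ± 0.08 and 1.33 ± 0.09 and both probes of each called. The elongation factor gene EEF1D (1.07 ± 0.20), the eIF3 gene EIF3F (0.85 ± 0.11) and the poly(A)-binding protein gene PABPC1 (0.83 ± 0.09) were higher. Of the 8 higher factors 4, EEF1D, EIF3E, EIF3H and PABPC1, lie on chromosome 13 in the RefSeq gene table. Of the 31 translation factors elsewhere 4 were higher and 2 lower. Their median of 0.015 was close to that of all genes. Among 17 aminoacyl-tRNA synthetases EPRS1 (0.74 ± 0.10) and RARS1 (0.53 ± 0.11) were higher and TARS1 (-1.05 ± 0.16) lower. Called members made up 17.6%, near the 17.3% of all genes.

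Chromatin proteins had 5 higher and 2 lower of 35, with CHD1L and ING3 at the ends. EED, a core subunit of the Polycomb repressive complex 2, had ratios of 0.96, 0.99, 1.04, 1.06 and 1.14, a very even set (1.04 ± 0.06, 2.06-fold). The high mobility group genes HMGA1 (0.79 ± 0.08) and HMGN3 (0.73 ± 0.19) were higher, HMGN3 without an averaged call (adjusted p = 0.16, limma). Of 37 splicing genes 4 were higher and 4 lower (21.6% called, beside 17.3% of all genes), all by less than 0.5. SNRPB2 (-0.44 ± 0.07) was the only averaged call. Of 30 proteasome genes 16.7% were called, near the 17.3% of all genes. PSMA4 was higher (0.79 ± 0.09), and PSMA2 (-0.77 ± 0.19), PSMB1 (-0.76 ± 0.11), PSMC6 (-0.62 ± 0.08) and PSMA6 (-0.43 ± 0.09) were lower. PSMA2 and PSMA6 were not averaged calls (adjusted p = 0.19 and 0.15, limma).

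Membrane traffic had 8 higher and 6 lower genes of 43 (32.6% called, beside 17.3% of all genes) and 6 averaged calls. The small GTPase genes RAB8A (0.99 ± 0.10) and RAB11B (0.80 ± 0.11), which serve the recycling route to the surface, were higher. The sorting nexin genes SNX2 (-0.79 ± 0.08) and SNX3 (-0.76 ± 0.11) and the vesicle coat gene SEC13 (-0.74 ± 0.14; adjusted p = 0.11 averaged, limma) were lower. Of 20 solute carriers SLC25A6, the adenine nucleotide translocator, was higher (0.47 ± 0.08) and so was the glutamate transporter gene SLC1A1 (0.44 ± 0.12; adjusted p = 0.076 averaged, limma).

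Interferon and antigen presentation genes had 2 higher of 16, B2M and OAS2, a called share of 12.5% beside 17.3% of all genes. OAS2, an antiviral synthetase, was at 3.10, 0.78, 0.84, 1.38 and 1.23, with replicate 1 far above the rest (1.47 ± 0.33; adjusted p = 0.09 averaged, limma). In the list for inflammation the complement genes C1S (0.94 ± 0.15) and C2 (0.75 ± 0.08) were higher of 8. The probes of both disagreed. For C2 the called probes had means of -0.37, 1.26 and 1.71, which was the only gene with probes called in opposite directions, and for C1S 1 of 3 probes was called, with means from 0.004 to 2.58.

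Among 13 apoptosis genes CLU and CASP2 (0.40 ± 0.08) were higher, and BIRC2 (-0.83 ± 0.07), an inhibitor of apoptosis, PDCD6 (-0.83 ± 0.17) and AIFM1 (-0.52 ± 0.11) lower, with only CLU and BIRC2 among the averaged calls. Of 12 tumour suppressors and oncogenes the transcription factor gene ETS1 was higher (0.47 ± 0.07), and the other 11 were not called.

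Markers of other cell types were rarely called. Of 11 leukocyte markers CD3D, a chain of the T cell receptor complex, was higher by 0.46 ± 0.09, and of 18 skeletal and cardiac muscle markers MYL2 was lower by 0.75 on the log2 scale (-0.75 ± 0.13). Neither was an averaged call (adjusted p = 0.075 and 0.055, limma). None of 6 endothelial, 2 cartilage or 2 adipocyte markers was called, and among them COL2A1, the type II collagen of cartilage, was at 0.10 ± 0.07. The cartilage protein gene COMP was at 0.15, 0.03, -1.08, -0.11 and 0.15, near 0 on all arrays but replicate 3. The medians of the leukocyte, endothelial and muscle lists were 0.05, -0.05 and -0.01.

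**Figure D3:**
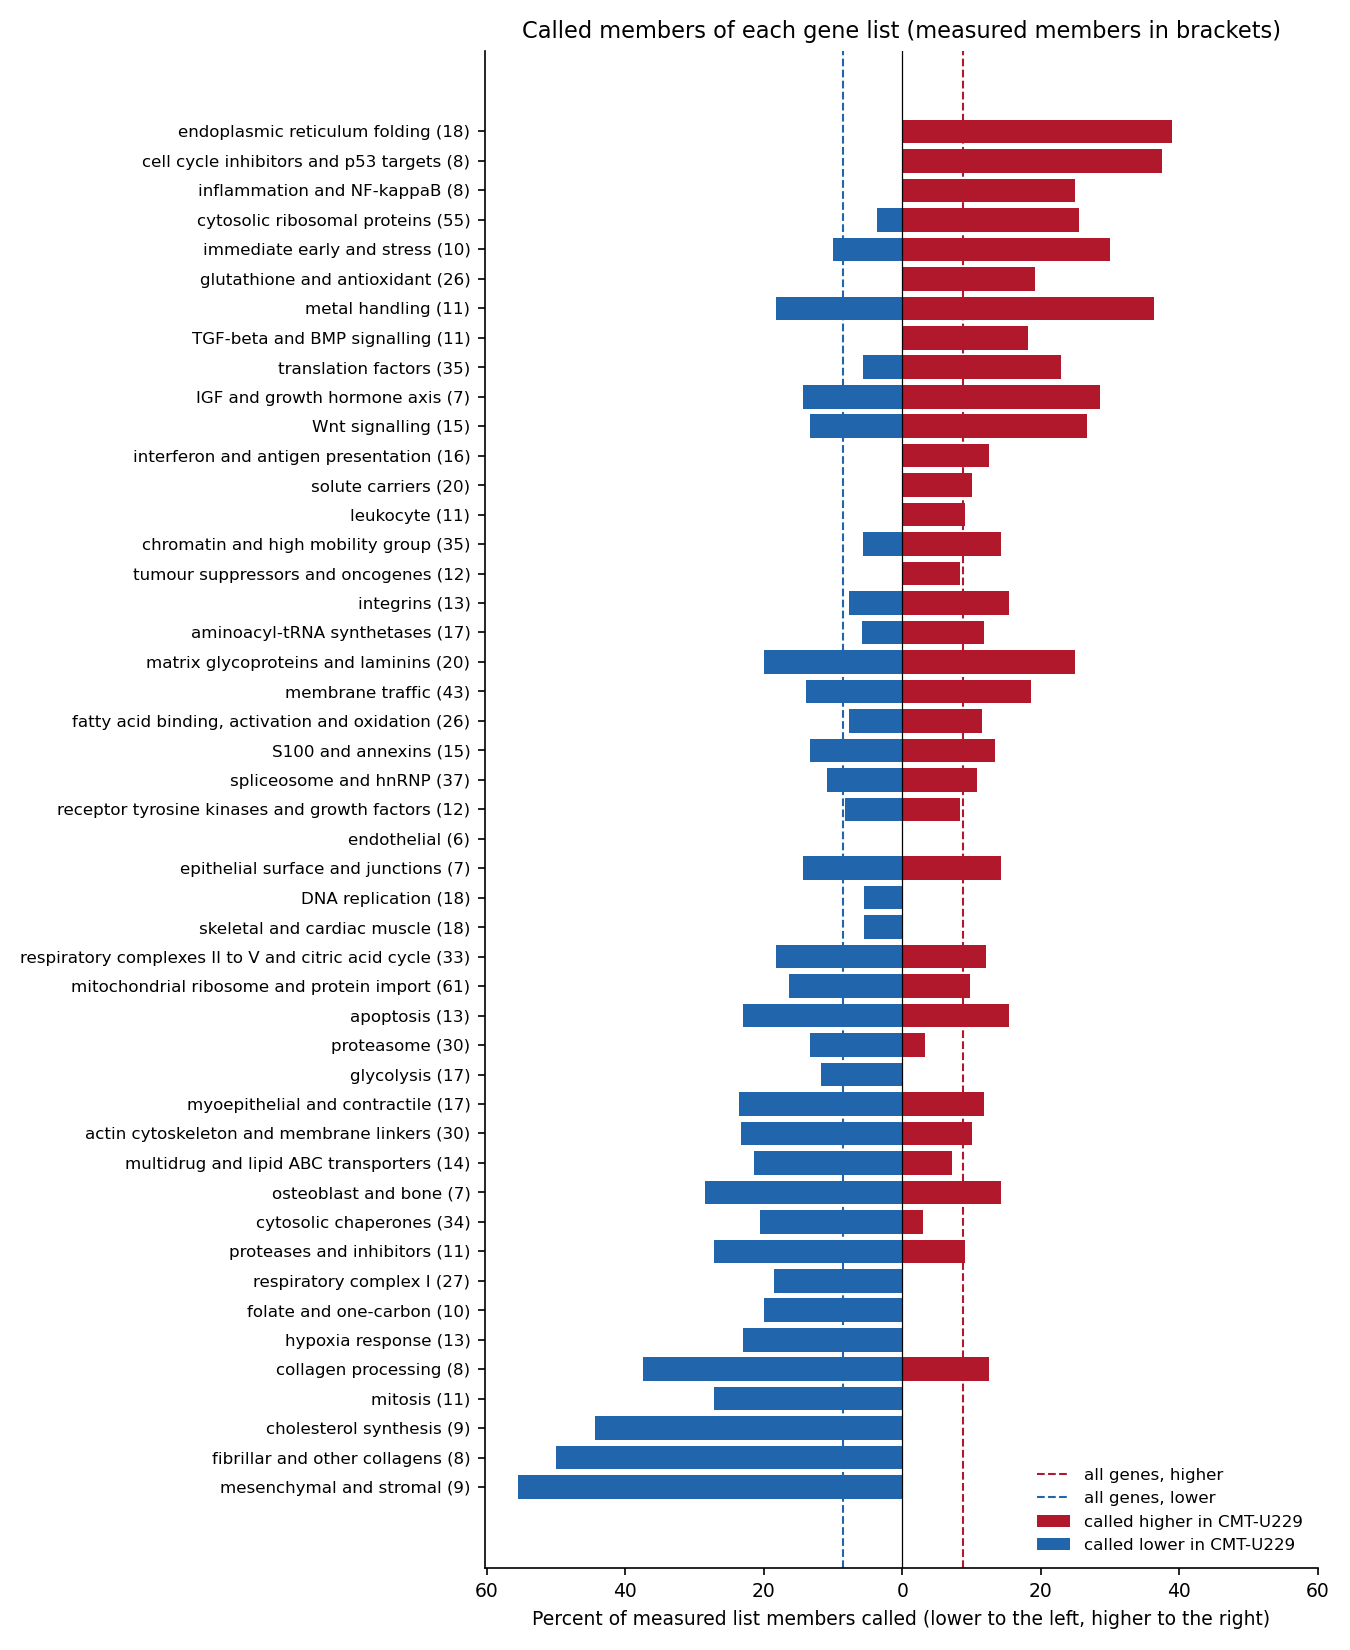
For each gene list with at least 5 measured members (number in brackets, y axis), bars give the percent of members called lower in CMT-U229 to the left in blue and higher to the right in red. Dashed lines mark the shares of all genes, 8.58% lower and 8.77% higher. Folding in the endoplasmic reticulum has the longest bar to the right, and the mesenchymal and collagen lists the longest to the left.

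The ratio could also be read through P114, from the 10 arrays that paired P114 with each of the other lines. These arrays share no hybridisation with the 5 direct ones. Whether they share RNA samples or cultures with them is not known here. MGST1 was at 4.52 ± 0.22 directly and 4.36 ± 0.62 through P114, CTSK at -3.98 ± 0.23 and -3.93 ± 0.29, COL1A2 at -3.39 ± 0.22 and -3.45 ± 0.37, and MYLK at 2.22 ± 0.07 and 2.29 ± 0.16. For each of these the gap was smaller than the larger SE. SPP1 was at 2.58 directly and 2.09 ± 0.65 through P114, where it was not called (adjusted p = 0.0779, limma). The other 29 leading genes were called by both routes.

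The difference between the direct ratio and the one through P114 was called for 0 of 5246 genes in limma, with 17 at an unadjusted p under 0.05. Evenly spread p-values would give 262, so the fit's errors were too wide or not independent for this test, and the 0 does not show that the ratios were equal. The median SE was 0.0929 for the direct ratio and 0.148 for the other. A dye effect was called for 0 genes in limma, with 474 at an unadjusted p under 0.05 and a smallest adjusted p of 0.106. The 474 are more than the 262 of evenly spread p-values, so the 0 does not show that dye had no effect.

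**Figure D4:**
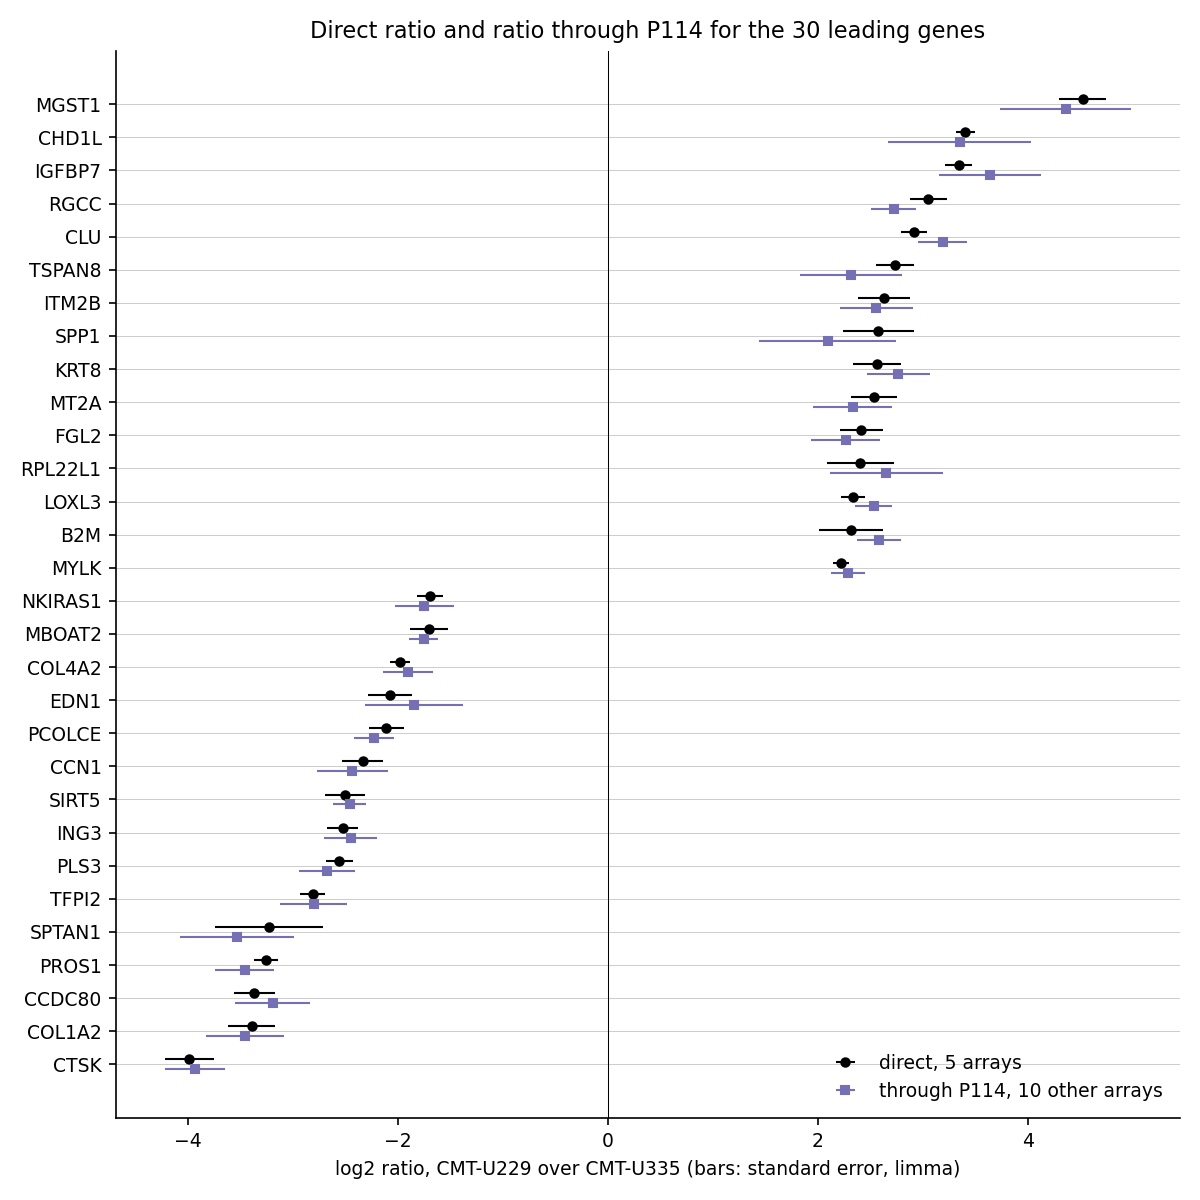
For the 30 leading genes (y axis), black circles give the direct log2 ratio of CMT-U229 over CMT-U335 from 5 arrays and purple squares the ratio computed through P114 from the 10 other arrays, with limma standard errors as bars. Both estimates of each gene lie on the same side of 0. The bars are longer through P114, as for CHD1L at 3.40 ± 0.09 and 3.35 ± 0.68, except for B2M, SIRT5 and MBOAT2.

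The called genes were spread unevenly over the chromosomes. Gene positions here are those of the RefSeq table of assembly UU_Cfam_GSD_1.0, and the chromosomes and stretches named were chosen after their values were seen, so no test is given. Chromosome 13 had 39 higher and 9 lower genes of 96, so that 40.6% were higher against 8.77% of all genes, and its median was above 0 on each array, from 0.226 to 0.296. Chromosome 32 had 31.7% of 63 genes higher, chromosome 22 25.8% of 62, chromosome 29 23.9% of 46 and chromosome 16 21.9% of 105. The opposite was seen on chromosome 33, with 24.5% of 53 genes lower, and on chromosome 14, with 19.8% of 81 lower.

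The first 25 measured genes of chromosome 13 held 14 higher and 0 lower genes, with a median of 0.72. Among the higher ones were RPL30, PABPC1, EIF3E and EIF3H of the translation machinery, the matrix protein gene MATN2 (1.07 ± 0.12), the transcription cofactor gene ENY2 (1.25 ± 0.09), the membrane insertase subunit gene EMC2 (1.04 ± 0.12) and OXR1 (0.99 ± 0.11), which protects against oxidative damage. Genes between them were not called, such as YWHAZ (-0.01) and ODF1 (-0.02). Farther along the same chromosome 4 neighbours were lower: RNF139 (-0.64), NDUFB9 (-0.96), SQLE (-1.15) and NSMCE2 (-1.12).

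Other runs of measured neighbours shared a direction. On chromosome 16, 6 consecutive genes were higher: PPP2CB (0.49), GSR (0.53), RBPMS (0.38), DCTN6 (0.87), LEPROTL1 (1.45) and SARAF (0.47). On chromosome 14 TFPI2, BET1 (-0.29), COL1A2 and SGCE followed each other and were all lower, so that 3 of the genes described above as matrix, protease inhibitor and mesenchymal genes lie in 1 stretch. On chromosome 34 PDCD6, ACTL6A (-0.94), MRPL47 and NDUFB5 were lower, and on chromosome 10 RTN4 (1.51), RPS27A, MTIF2 (0.88) and EFEMP1 were higher. Gene copy number was not measured in these data.

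**Figure D5:**
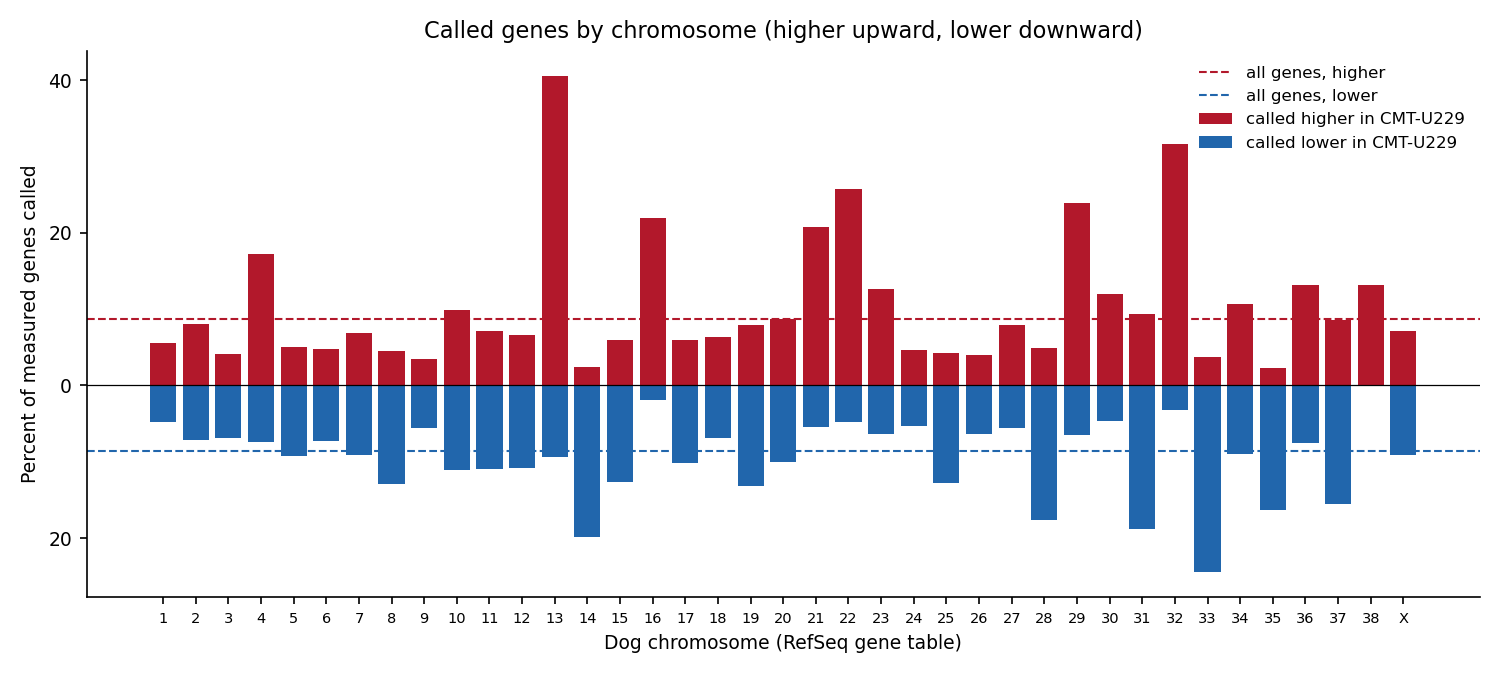
Percent of measured genes on each dog chromosome (x axis) called higher in CMT-U229 (red, upward) or lower (blue, downward), with dashed lines at the shares of all genes, 8.77% and 8.58%. Chromosome 13 has the tallest red bar, at 40.6%, and chromosome 33 the tallest blue bar, at 24.5%.

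Some large ratios differed between the couples of arrays while agreeing in direction. SPTAN1 averaged -4.86 in replicates 2 and 3 and -2.08 in replicates 4 and 5, and CALD1 averaged -0.41 and -2.90. CDKN1A stood at 0.77 and 2.54, MSMO1 at -0.54 and -2.23, SQLE at -0.41 and -1.84, S100A1 at 2.47 and 0.95 and RPL22L1 at 3.26 and 1.496. SPTAN1, S100A1 and RPL22L1 were thus farther from 0 in replicates 2 and 3, and CALD1, CDKN1A and the sterol genes in replicates 4 and 5. Over all 910 called genes the median gap between the averages of the couples was 0.227. Between single arrays it was 0.131 for replicates 2 and 3 and 0.190 for replicates 4 and 5. These measures are unlike, and the couples were chosen for lying close together, so small gaps within them were partly set beforehand. Whether the couples are separate cultures is not given in the sources used here.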

How the data were processed

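RNA of the lines had been amplified by T7 transcription, coupled to Cy3 or Cy5 and hybridised to cDNA arrays, per the labels' protocols. The deposited values are log ratios between the dyes. Normalization and log transformation by the authors are stated in the series' design, without the method or the base. The deposited ratios were read as log2, since the largest value, 12.43, would be a 5511-fold ratio on that scale, within the 65536-fold range of a 16-bit scan.

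Of 22176 probes 7694 had 1 gene symbol and 14482 none. Symbols were updated by Entrez identifier for 7340 probes. Each array was turned to CMT-U229 over CMT-U335, and probes of a gene were averaged (3627 of 5246 genes had 1 probe). Genes needed values on 3 arrays. limma 3.58.1 (lmFit, eBayes, two-sided) in R 4.3.3 tested the mean of 5 arrays against 0 with Benjamini-Hochberg adjustment. limma took the place of the SAM test named in the design text. The code was tested on simulated data.

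The comparison, the 52 gene lists and the tests were chosen with earlier results of these data known, as were the couples of arrays that were averaged. Named were the 15 largest called ratios in each direction with 1 sign on every array, up to 5 called members of each list (2 as values where none was called), genes with probes called in opposite directions, and a few epithelial, bone and receptor genes. COL3A1, CAV1, ALPL, PHEX, BMP2, ACTA2 and TAGLN were added as list members after their values were seen, as were the genes named by chromosome. Alternatives are given in the closing section. No sequences are shown.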

Additional observations from a re-analysis of the deposited data

Results flagged for a closer look

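In 4 of the 184 named genes 1 array stood apart from the other 4 by Dixon's criterion, which chance meets in about 1 in 20 groups. PROS1 was at -2.74 in replicate 4, against -3.44 to -3.27 on the other arrays, and was lower on all 5. OAS2 was at 3.10 in replicate 1, against 0.78 to 1.38 elsewhere. ID3 was at 0.025 in replicate 4, against 0.37 to 0.45 elsewhere. COMP was at -1.08 in replicate 3, against -0.11 to 0.15 elsewhere, and was not called.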

How the results depend on the processing

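Settings that moved a share of called genes by over 1.5 times are given first, and the cause of these moves was not tested. Called genes (17.3%, 910) became 27.5% (1445) in a loop fit of all 15 arrays, 8.64% (453) through P114, 7.82% (410) with the couples averaged, 8.96% (470) at an adjusted p under 0.01 and 8.23% (1826) of all probes taken singly, unnamed ones included. With 1 array left out they ranged from 10.9% to 16.5%, with 571 genes without replicate 5, 586 without replicate 2 and 863 without replicate 1. Higher genes (8.77%) became 3.68% through P114, 4.37% averaged, 4.73% at 0.01 and 4.29% of probes, and ranged from 5.81% to 7.55% with 1 array left out. Lower genes (8.58%) became 15% in the loop fit, 4.96% through P114, 3.45% averaged, 4.23% at 0.01 and 3.95% of probes, and ranged from 5.07% to 8.92%. Genes of at least 2-fold numbered 139 to 170 under every setting by gene (154 as reported), and 451 probes passed singly. A SAM-type test called 1125 genes. Array medians set to 0, scaling to the same spread, a dye term, the median of probes, other filters on missing values and a robust fit kept the total within 846 to 968. With the replicate number as a block 17.5% (920) were called, against 1040 genes for the same 15 arrays without it. Deviations of same-numbered arrays correlated from -0.248 to 0.333. Differently numbered arrays were not compared, so whether the numbers pair the arrays is not settled. Of 174 named called genes 0 reversed, 60 lost the call with the couples averaged, 59 through P114, 15 with a dye term and 50 with some array left out. A few uncalled genes changed sign. COMP was 0.031 by the median of probes and -0.25 to 0.055 with 1 array left out, FLT1 0.0087 through P114, and DGAT2 -0.31 in the loop fit, -1.21 through P114 and -0.35 to 0.45 with 1 array left out. CIDEA was -0.0023 with a dye term and -0.046 to 0.088 with 1 array left out, ERBB2 -0.026 through P114 and -0.0029 to 0.12, and EGFR -0.076 through P114, -0.016 averaged and -0.070 to 0.13.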

Other observations

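Probes without a gene symbol also differed between the lines. Tested one by one in limma over all 22176 probes, 802 of 14482 unnamed probes and 1024 of 7694 named probes were called.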
